A study of Mus musculus with 12 samples.

Results

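Semaphorins, plexins, ephrins and Eph receptors were followed in small blood vessels from the brains of Notch3 knockout and control mice. Members were the genes on the array whose symbols start with Sema, Plxn, Efna, Efnb, Epha or Ephb. A gene was represented by the probe set that names it alone and has the highest mean over the 12 arrays. This gave 48 members of 18193 genes with such a probe set: 19 semaphorins, 9 plexins, 7 ephrins, 12 Eph receptors and 1 antisense RNA, Plxna4os1. A few further genes of these families were not analysed here.

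RNA from microvascular fragments was measured on Affymetrix Mouse Genome 430 2.0 arrays, which read each gene with 1 or more sets of short probes. The 4 groups were knockout cerebral, knockout cerebellar, control cerebral and control cerebellar vessels, with 3 arrays each. Knockout mice lacked Notch3, a receptor of mural cells, and the controls were their littermates. All mice were C57BL/6 and 2 months old. Replicate numbers were read as mice, which gives 6 mice with 1 array per region each. The sources used here do not say how the allele was made or how the fragments were isolated.

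Semaphorins are secreted, membrane-spanning or lipid-anchored guidance proteins. Most are read by plexins, and most secreted class 3 semaphorins also need neuropilins as co-receptors. A-type ephrins are held in the membrane by a lipid anchor and B-type ephrins span it. They bind Eph receptor tyrosine kinases on a neighbouring cell, and signals can pass into both cells. In blood vessels these families are known for guiding endothelial sprouts, for endothelial contact with mural cells and for setting vessel identity.

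All values are log2 expression values. Array medians lay between 3.240 and 3.302, and arrays of 1 group correlated at 0.991 to 0.996 over the genes tested. The brighter Notch3 probe set read 2.48 to 3.58 on the knockout arrays and 10.8 to 12.02 on the control arrays, without overlap. Of 12 endothelial markers listed, 11 had a probe set naming 1 gene and all 11 were above background. Their summed level was 17.59 to 17.77 in knockout and 17.58 to 17.65 in control vessels. Neurons of the forebrain were near background, with a mean marker level of 3.40 to 3.49 in knockout and 3.37 to 3.44 in control vessels. Other lists from outside the vessel wall lay higher. Markers of neurons of all kinds averaged 5.12 to 5.58 in knockout and 5.07 to 5.71 in control vessels. Astrocyte markers averaged 9.02 to 9.80 in knockout and 8.96 to 9.49 in control vessels. For choroid plexus markers these means were 10.68 to 12.32 and 10.41 to 12.21.

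A gene counted as expressed when 3 or more arrays were above 3.27, the median over the whole table. This held for 29 members of the 11716 genes tested: 13 semaphorins, 8 plexins, 4 ephrins and 4 Eph receptors. All 29 exceeded that level on all 12 arrays, so none passed through 1 group alone. Their values ran from 3.31 to 14.3. The limit is the same for all probe sets, so it does not show that a flat one reads RNA above its own floor. Flat sets were those of Sema6b and Efna2, with ranges of 0.16 and 0.06 over the 12 arrays. That of Plxnc1 was flat in knockout cerebral vessels (SD 0.005). Whether these 3 read RNA was not tested. The 19 members at background ranged from 1.83 to 3.92. They were Sema3a, Sema3d, Sema3e, Sema4f, Sema5b, Sema6c, Plxna3, Plxna4os1, Efna3, Efna4, Efnb3, Epha1, Epha5, Epha6, Epha8, Epha10, Ephb1, Ephb3 and Ephb6.

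Levels of different genes come from different probes and are not ranked here as amounts of RNA. Among the semaphorins, the brightest probe sets were those of Sema3c, Sema7a, Sema3g and Sema6d. Sema3c, a secreted semaphorin, read 13.9 to 14.3 in knockout and 13.8 to 14.1 in control vessels. Sema3g, a secreted semaphorin of endothelium, read 12.6 to 12.9 in knockout and 12.2 to 12.6 in control vessels. The brightest plexin probe sets were those of Plxnb2, Plxnd1, Plxna2 and Plxnb1. The expressed ephrins were Efna1, Efna2, Efna5 and Efnb1, and the expressed Eph receptors were Epha2, Epha3, Epha4 and Epha7. Efna2 was just inside the expression limit, with a mean of 3.52.

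**Figure D1:**
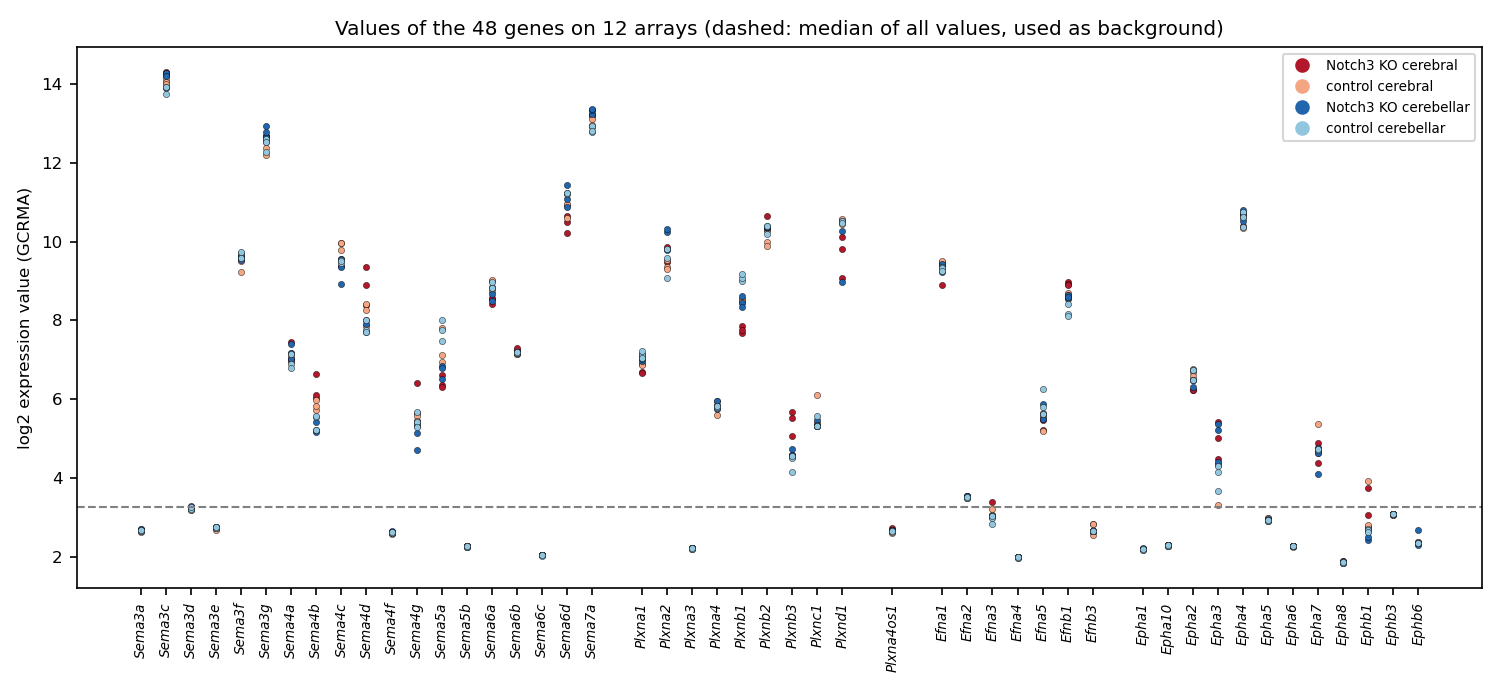
Log2 expression values (vertical axis) of the 48 members (horizontal axis, by family), with a point for each of the 12 arrays coloured by group and a dashed line at 3.27, the median of all values. The 29 expressed members lie above the line on every array, and Sema3c and Sema7a have the brightest semaphorin probe sets.

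Loss of Notch3 went with lower Plxnb1 and Sema5a and with higher Efnb1 in the vessels of both regions. Sema7a was higher in knockout cerebellar vessels, and in cerebral vessels Sema6a was lower and Plxnb3 higher. The other expressed members did not pass the test. A gene was called when its limma adjusted p was under 0.05. In cerebral vessels Efnb1 was just under this threshold and Sema7a just over it (limma adjusted p = 0.0459 and 0.0519), so this split between the 2 genes is not firm. In cerebral vessels 5 of 29 members were called, 2 higher and 3 lower, against 6.38% of all genes tested (2.45% higher and 3.93% lower). In cerebellar vessels 4 of 29 were called, 2 in each direction, against 4.22% of all genes (1.06% higher and 3.17% lower). With the 2 arrays of each mouse averaged, Plxnb1, Sema5a, Efnb1 and Sema7a were called, 4 of 29, against 4.03% of all genes (1.02% higher and 3% lower). Of these averaged calls, that of Plxnb1 held in all 6 runs that left out 1 mouse, that of Sema5a in 2, and those of Efnb1 and Sema7a in none. With a covariate for Xist, the RNA of the inactive X chromosome, the Sema5a, Efnb1 and Sema7a calls on these averages were lost. Both genotypes held mice with and without Xist signal, which reads as a mix of the sexes, and the main tests did not account for it. The regions shared 3 called members, Plxnb1, Sema5a and Efnb1, and the arrays of both regions were read as coming from the same mice.

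The median change over the 29 members was 0.04 in cerebral and 0.01 in cerebellar vessels, against -0.01 and 0.01 over all genes. Without regard to sign, the median size of the change was 0.28 and 0.23 for the members, against 0.11 and 0.10 for all genes. The members were not matched with all genes for expression level, and the part of level in this difference was not tested. In cerebral vessels the knockout and control arrays did not overlap for 7 higher and 6 lower members, against 10.1% and 14.3% of all genes. In cerebellar vessels this held for 5 higher and 3 lower members, against 10.4% and 11.7% of all genes. For the averages per mouse it held for 9 higher and 5 lower members, against 11.6% and 14.7% of all genes.

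**Figure D2:**
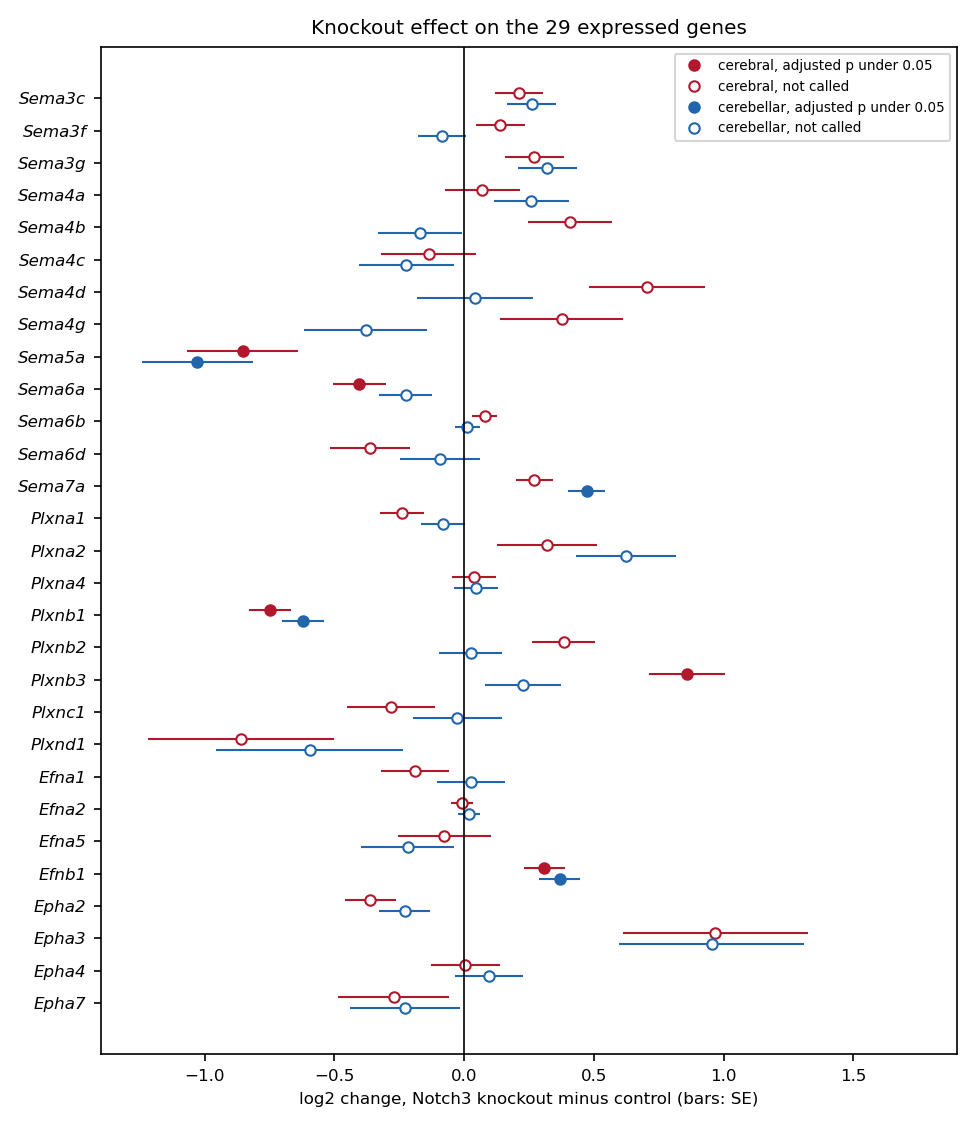
Log2 change (knockout minus control) of the 29 expressed members, with the standard error, in cerebral and cerebellar vessels. Called members are marked. Plxnb1 and Sema5a lie below 0 and Efnb1 above 0 in both regions.

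Sema5a, a membrane-spanning semaphorin with thrombospondin repeats, was lower in the knockout. It read 6.61, 6.37 and 6.31 in knockout cerebral vessels, against 7.12, 7.80 and 6.93 in control cerebral vessels. In cerebellar vessels it read 6.52, 6.84 and 6.79 in knockouts, against 7.74, 8.01 and 7.48 in controls. The genotypes did not overlap in either region. The change was -0.85 (SE 0.21, adjusted p = 0.0423), 1.81-fold lower, in cerebral vessels and -1.03 (SE 0.21, adjusted p = 0.0235), 2.04-fold lower, in cerebellar vessels. Its second probe set, 1434776_at, changed by -1.12 and -1.16 but was not called (adjusted p = 0.0542 and 0.0597, limma over probe sets). The cerebral call held in 1 of the 6 runs that left out 1 array, without control replicate 3. The cerebellar call held in 2 of 6, without control replicate 3 and without knockout replicate 2.

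Sema7a, a lipid-anchored semaphorin that binds plexin-C1 and beta-1 integrin, was higher in the knockout. Knockout cerebellar vessels read 13.24, 13.34 and 13.37, against 12.79, 12.93 and 12.82 in control cerebellar vessels. The change was 0.47 (SE 0.07, adjusted p = 0.00374), and it was called in all 6 runs that left out 1 array. In cerebral vessels Sema7a read 13.20, 13.34 and 13.24 in knockouts, against 12.97, 13.10 and 12.90 in controls. The groups did not overlap there either, but the change of 0.27 was not called (adjusted p = 0.0519). A filter at the 75th percentile, the mean of probe sets, array weights and the replicate block were among the alternatives that called Sema7a there. No filter, quantile normalisation, the Xist covariate and a fit of only the cerebral arrays did not. Plxnc1, the gene of its plexin, changed by -0.28 and -0.03 and was not called (adjusted p = 0.399 and 0.967).

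Sema6a, a membrane-spanning semaphorin that binds plexin-A2 and plexin-A4, was called in cerebral vessels. Its arrays read 8.55, 8.56 and 8.43 in knockouts, against 8.99, 8.73 and 9.02 in controls, a change of -0.40 (SE 0.10, adjusted p = 0.0448). The call held in 1 of 6 runs that left out 1 array, without control replicate 2. The other probe sets of Sema6a, 1425903_at and 1421414_a_at, lay near background, with means of 3.65 and 3.32. They changed by -0.15 and -0.02 in cerebral vessels and were not called (adjusted p = 0.404 and 0.905, limma over probe sets). In cerebellar vessels Sema6a read 8.82, 8.67 and 8.48 in knockouts, against 8.85, 8.82 and 8.98 in controls, and these overlapped (change -0.23, adjusted p = 0.302). The cerebellar minus the cerebral knockout effect was 0.18 (SE 0.14) and was not called.

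The other 10 expressed semaphorins were not called in either region. Sema3c was higher by 0.21 and Sema3g by 0.27 in knockout cerebral vessels, without overlap between the groups (adjusted p = 0.230 and 0.207). Sema4d, the ligand of plexin-B1, read 9.37, 8.39 and 8.89 in knockout cerebral vessels, against 8.42, 7.85 and 8.25 in control cerebral vessels. These overlapped, and the change of 0.70 was not called (SE 0.22, adjusted p = 0.0999). Sema6b, by contrast, stayed between 7.15 and 7.31 on all 12 arrays.

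Plxnb1, the receptor for Sema4d, was the member with the lowest adjusted p in both regions. It read 7.86, 7.67 and 7.74 in knockout cerebral vessels, against 8.55, 8.51 and 8.47 in control cerebral vessels. Cerebellar arrays read 8.45, 8.61 and 8.34 in knockouts, against 9.01, 9.07 and 9.18 in controls. Every knockout array lay below every control array of its region. The change was -0.75 (SE 0.08, adjusted p = 0.000359), 1.68-fold lower, in cerebral vessels and -0.62 (SE 0.08, adjusted p = 0.00127), 1.54-fold lower, in cerebellar vessels. A second probe set, 1435255_at, was called too, with changes of -0.56 and -0.42. It read 6.17, 6.35 and 6.38 in knockout cerebral vessels, against 6.84, 6.88 and 6.84 in control cerebral vessels. Both regions kept the Plxnb1 call under every alternative setting tried and in all 6 runs that left out 1 array.

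Plxnb3, a plexin that binds Sema5a, is X-linked and was higher in knockout cerebral vessels. It read 5.51, 5.06 and 5.67 in knockouts, against 4.56, 4.57 and 4.52 in controls, and the knockout arrays spread more widely than the controls. The change was 0.86 (SE 0.15, adjusted p = 0.00709), 1.82-fold higher. It was called in all 6 runs that left out 1 array but not when only the cerebral arrays were fitted (adjusted p = 0.0543), where Plxnb1 was the 1 member called. In cerebellar vessels Plxnb3 read 4.58, 4.58 and 4.74 in knockouts, against 4.49, 4.16 and 4.56 in controls, and was not called (change 0.23, adjusted p = 0.501). Markers of microglia and macrophages moved with it: 3 of 7 were called higher in knockout cerebral vessels and none in cerebellar vessels. Their summed level was 15.81 to 16.33 in knockout and 15.15 to 15.63 in control cerebral vessels. Oligodendrocyte markers were not called (0 of 4), with a summed level of 12.9 to 14.4 in knockout and 12.7 to 13.8 in control cerebral vessels, and Mog, Mag and Ermn were at background. Their part in the Plxnb3 result was not tested.

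Plxnd1, an endothelial plexin that binds Sema3e, read 9.82, 9.07 and 10.12 in knockout cerebral vessels, against 10.56, 10.46 and 10.57 in control cerebral vessels. The groups did not overlap, but the knockout arrays differed so much among themselves that the change of -0.86 was not called (SE 0.36, adjusted p = 0.206). Cerebellar arrays read 10.26, 8.96 and 10.49 in knockouts, against 10.52, 10.51 and 10.47 in controls, and replicate 2 was the lowest knockout array in both regions. Plxna2, a receptor of class 6 semaphorins, changed by 0.32 and 0.62 and was not called (adjusted p = 0.398 and 0.116). Plxnb2, a receptor of Sema4c, changed by 0.38 and 0.02 and was not called (adjusted p = 0.0979 and 0.955).

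**Figure D3:**
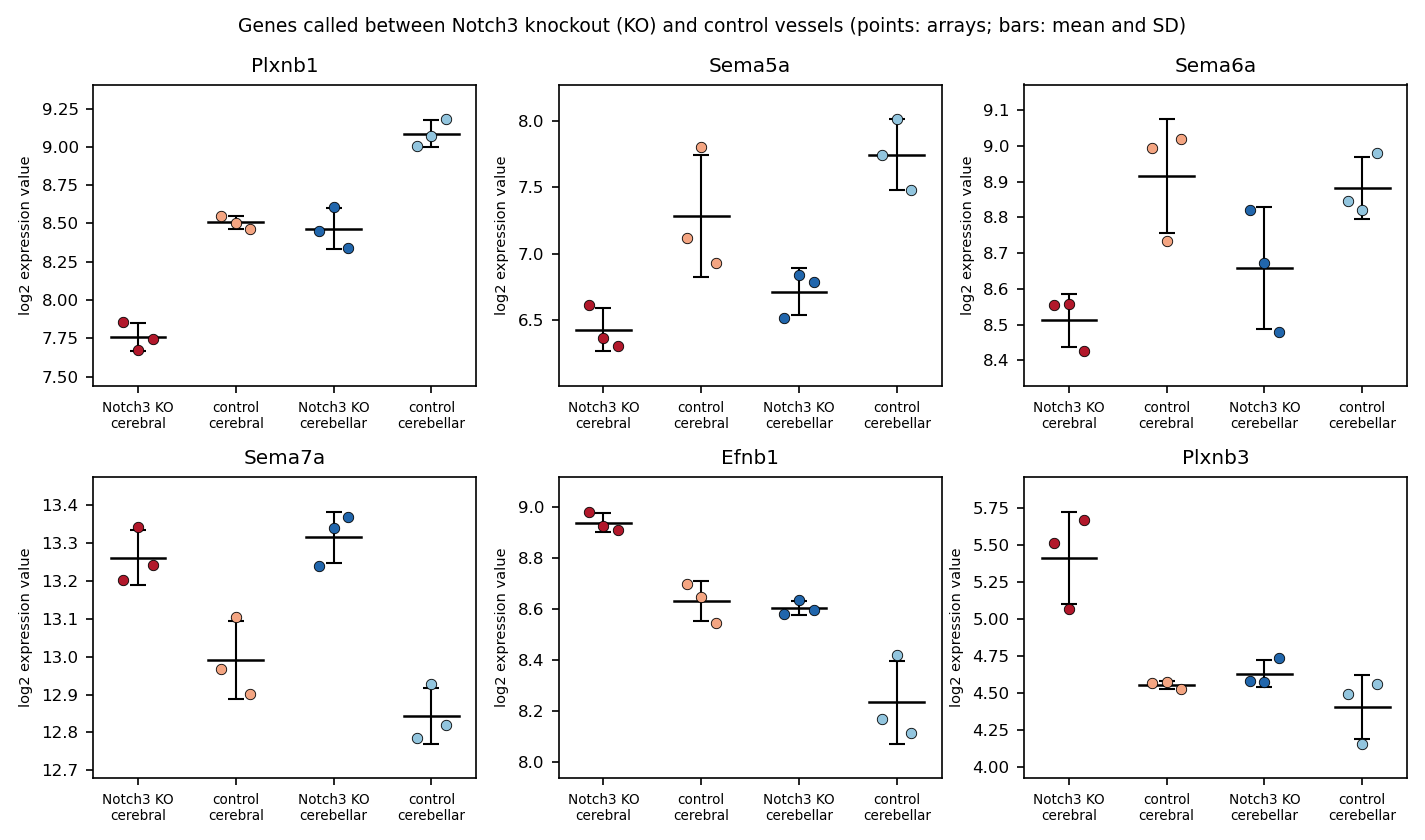
Log2 expression level of Plxnb1, Sema5a, Sema6a, Sema7a, Efnb1 and Plxnb3 on each array by group, with knockout left of control in each region. Plxnb1 and Sema5a are lower and Efnb1 higher in knockout vessels of both regions, without overlap.

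Efnb1, an X-linked B-type ephrin, was higher in the knockout. It read 8.98, 8.93 and 8.91 in knockout cerebral vessels, against 8.70, 8.65 and 8.54 in control cerebral vessels. Cerebellar arrays read 8.58, 8.64 and 8.60 in knockouts, against 8.17, 8.42 and 8.12 in controls. The genotypes did not overlap in either region. The change was 0.31 (SE 0.08, adjusted p = 0.0459), 1.24-fold higher, in cerebral vessels and 0.37 (SE 0.08, adjusted p = 0.0273), 1.29-fold higher, in cerebellar vessels. Both are near the threshold: without 1 array the cerebral call was lost in all 6 runs, and the cerebellar call held only without control replicate 2. The cerebral call held in 4 of 11 other alternative settings. The other probe sets of Efnb1 changed by 0.13 and 0.39 in cerebral and by 0.45 and 0.14 in cerebellar vessels and were not called.

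The other 3 expressed ephrins were not called in either region. Efna1 read 8.90, 9.49 and 9.42 in knockout cerebral vessels, against 9.43, 9.45 and 9.51 in control cerebral vessels. Replicate 1 of the knockout was low and the other arrays lay together (change -0.19, adjusted p = 0.468). Efna5 changed by -0.08 and -0.22 (adjusted p = 0.870 and 0.618). Efna5 and Sema6b lie on chromosome 17, which also carries Notch3. Efna2 stayed between 3.49 and 3.55 on all 12 arrays.

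Upstream sequences are shown for Plxnb1, Sema5a and Efnb1 because these members were called the same way in both regions. Each is the 250 bases before the annotated gene start, from RefSeq on GRCm38.p6, on the gene's strand. Capitals mark the GC box letters GGGCGG or their complement CCGCCC, searched on both strands after the sequences were seen, and neighbouring matches can overlap.
Plxnb1, chr9:109095186-109095435, plus strand: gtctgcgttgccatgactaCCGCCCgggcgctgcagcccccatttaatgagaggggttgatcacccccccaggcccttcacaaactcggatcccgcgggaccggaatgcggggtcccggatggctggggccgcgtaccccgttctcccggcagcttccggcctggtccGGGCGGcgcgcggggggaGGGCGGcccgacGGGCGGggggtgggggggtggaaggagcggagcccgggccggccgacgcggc
Sema5a, chr15:32244563-32244812, plus strand: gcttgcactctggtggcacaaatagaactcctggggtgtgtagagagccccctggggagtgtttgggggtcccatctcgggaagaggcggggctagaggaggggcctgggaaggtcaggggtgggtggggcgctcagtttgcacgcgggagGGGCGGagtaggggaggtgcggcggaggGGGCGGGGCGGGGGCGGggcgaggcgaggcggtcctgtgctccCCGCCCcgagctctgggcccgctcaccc
Efnb1, chrX:99135811-99136060, plus strand: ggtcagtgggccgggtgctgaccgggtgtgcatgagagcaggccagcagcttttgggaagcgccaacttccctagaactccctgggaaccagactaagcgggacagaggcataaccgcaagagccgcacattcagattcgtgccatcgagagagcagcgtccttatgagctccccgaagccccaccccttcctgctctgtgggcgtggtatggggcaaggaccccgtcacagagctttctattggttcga
The Plxnb1 sequence has 75.2% G and C and 4 matches, that of Sema5a 72.0% and 5 matches, and that of Efnb1 60.0% and none. Of all 32851 promoters of this length, 32.74% hold a match, as do 75% of the 56 promoters of members and 81.08% of the 37 promoters of expressed members, so a match does not set these genes apart from the other members. The letters GTGGGAA, the core bound by the Notch partner RBPJ, occur on neither strand in these 3 sequences. Counted per gene over any of its promoters, they occur in 2 of 42 members, Epha7 and Plxnb2, against 6.176% of all 27025 genes. These matches describe letters and say nothing of binding.

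Epha4, a receptor of both ephrin types, gave different answers by probe set. The brightest set, 1429021_at, which represents the gene here, read 10.62, 10.69 and 10.40 in knockout cerebral vessels, against 10.62, 10.72 and 10.35 in control cerebral vessels. It was not called: the cerebral change was 0.00 (95% interval -0.29 to 0.30) and the cerebellar change 0.10 (95% interval -0.20 to 0.39). Set 1439757_s_at read 8.82, 8.84 and 8.75 in knockout cerebral vessels, against 9.45, 9.47 and 9.37 in control cerebral vessels. Its cerebellar arrays read 8.75, 8.57 and 8.57 in knockouts, against 9.34, 9.14 and 9.09 in controls. It was called lower in both regions, by -0.63 (SE 0.08, adjusted p = 0.00118) and -0.56 (adjusted p = 0.00256). Set 1421929_at was also called lower, by -0.50 (adjusted p = 0.00708) and -0.48 (adjusted p = 0.00951). The last 2 sets were not called: 1421928_at changed by 0.80 and 0.38 and 1456863_at by -0.29 and -0.32. Which transcripts each set reads was not tested.

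**Figure D4:**
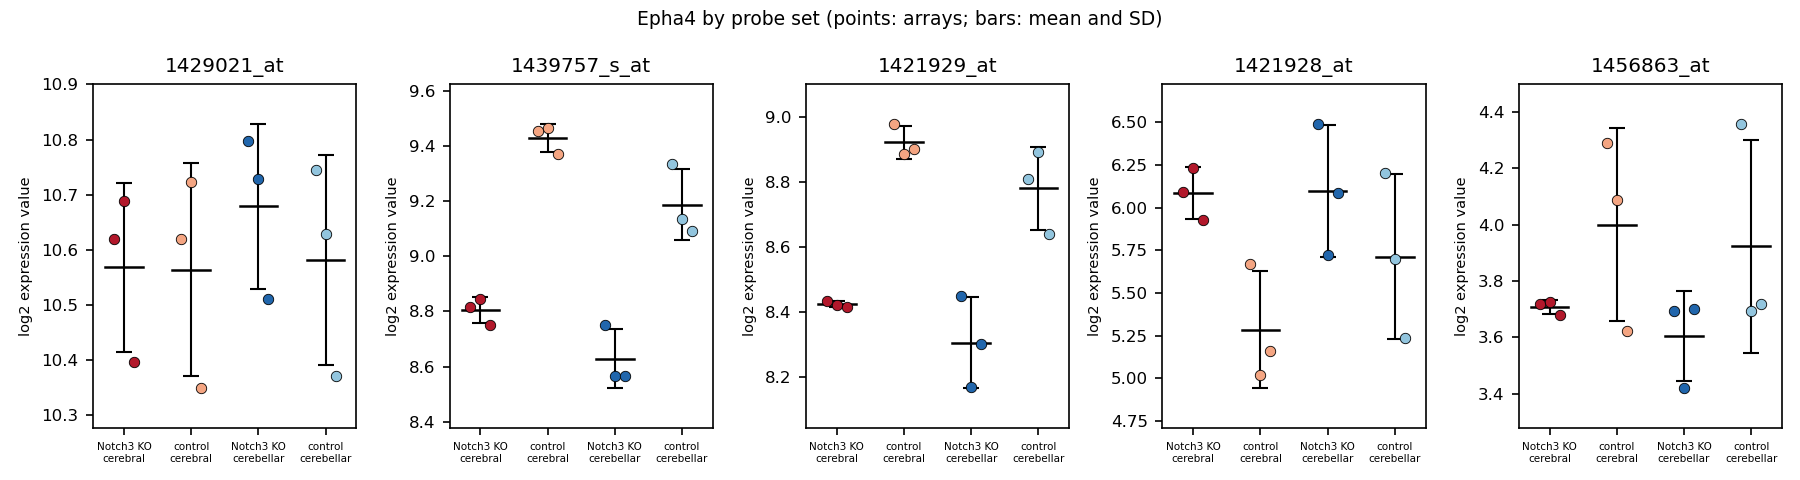
Log2 expression level of the 5 Epha4 probe sets on each array by group, with knockout left of control in each region. Sets 1439757_s_at and 1421929_at are lower in knockouts without overlap, while 1429021_at overlaps.

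Epha3, a receptor of A-type ephrins, read 5.42, 4.47 and 5.003 in knockout cerebral vessels, against 4.32, 4.35 and 3.31 in control cerebral vessels. Cerebellar arrays read 5.37, 4.40 and 5.22 in knockouts, against 4.14, 4.31 and 3.66 in controls. The genotypes did not overlap, but the changes of 0.97 (SE 0.36, adjusted p = 0.153) and 0.96 (adjusted p = 0.199) were not called. A second probe set, 1425575_at, changed by 0.52 and 0.28, and its genotypes overlapped in both regions. It was not called (adjusted p = 0.205 and 0.596, limma over probe sets). The fit with Xist given below used the brighter set alone. Xist, the RNA of the inactive X chromosome, was at or below 2.87 in control mouse 3 and knockout mouse 2 and at 12.9 to 13.3 in the other mice. Those mice had the lowest Epha3 arrays of their genotype. With Xist as a covariate, a setting added after the data were seen, Epha3 was called higher in both regions, by 0.97 (SE 0.12, adjusted p = 0.0017) and 0.97 (adjusted p = 0.00194). Epha2, a receptor of Efna1, was lower by -0.36 in cerebral and -0.23 in cerebellar vessels without overlap, and was not called (adjusted p = 0.0585 and 0.272). Epha7 changed by -0.27 and -0.23 and was not called.

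Co-receptors and effectors of the families were read from fixed lists. Of 27 semaphorin and plexin partners tested, 2 were called higher and 2 lower in knockout cerebral vessels, and 1 lower in knockout cerebellar vessels. L1cam, an adhesion molecule of the class 3 semaphorin receptor, changed by -0.62 (adjusted p = 0.0128) in cerebral and -0.86 (adjusted p = 0.0021) in cerebellar vessels. Dpysl3, a collapsin response mediator, was called lower in cerebral vessels, by -0.76 (adjusted p = 0.0484). Fes, a kinase that binds plexin-A1, and Rac1, a GTPase that binds plexin-B1, were called higher there, by 0.59 (adjusted p = 0.0082) and 0.21 (adjusted p = 0.0496). The neuropilins were not called: Nrp1 changed by 0.03 and 0.07 and Nrp2 by -0.26 and -0.11. Of 22 ephrin and Eph partners tested, the only one called was Grip2, which binds B-type ephrin tails, lower by -2.39 and -2.79.

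Markers of mural cells moved with the lower members. Of 8 smooth muscle markers, 6 were called lower in the knockout in each region, with medians of -1.12 and -1.15. Their summed level was 14.85 to 15.03 in knockout and 15.44 to 15.64 in control cerebral vessels. In cerebellar vessels it was 14.95 to 15.10 in knockouts and 15.57 to 15.82 in controls. Of 7 pericyte markers tested, 3 were called lower in cerebral and 2 in cerebellar vessels. Endothelial markers were not called (0 of 11), with medians of 0.07 and 0.05. Of 7 cerebellar neuron markers, 3 were called higher in knockout cerebellar vessels. In these bulk samples fewer cells of a type and less RNA per cell cannot be told apart, and the part of mural cells in the members' changes was not tested.

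Whether the knockout effect differed between regions was tested directly, as the cerebellar minus the cerebral change. By limma, 0 of 29 members were called, against 0.0427% of all genes (0.0171% higher and 0.0256% lower), and 3 had an unadjusted p under 0.05. These were Plxnb3 at -0.63 (SE 0.21, unadjusted p = 0.0121), Sema4b at -0.58 (SE 0.23, unadjusted p = 0.0296) and Sema4g at -0.76 (SE 0.34, unadjusted p = 0.0481). Their adjusted p was 0.999. A call of Sema7a, Sema6a or Plxnb3 in 1 region therefore does not show a difference between regions.

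Between regions, Plxnb1 was higher and Efnb1 lower in cerebellar than in cerebral vessels in both genotypes. In control mice these were the 2 called members of 29, against 2.29% of all genes (1.95% higher and 0.333% lower). Plxnb1 averaged 9.09 ± 0.09 in control cerebellar and 8.51 ± 0.04 in control cerebral vessels (SD, n = 3 each), a change of 0.58 (limma adjusted p = 0.0064). Efnb1 averaged 8.24 ± 0.16 in control cerebellar and 8.63 ± 0.08 in control cerebral vessels (SD, n = 3 each), a change of -0.39 (limma adjusted p = 0.0319). The Efnb1 call in controls held in 1 of 6 runs that left out 1 array, without control cerebellar replicate 2. The other Efnb1 probe sets, 1418286_a_at and 1451591_a_at, changed by -0.45 and -0.21 in controls and were not called (adjusted p = 0.200 and 0.502, limma over probe sets). With the mouse as a fixed replicate block, added after the data were seen, 4 members were called, the other 2 being Efna5 (0.41, adjusted p = 0.0328) and Sema6d (0.40, adjusted p = 0.0368), both higher in cerebellar vessels.

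In knockout mice 6 of 29 members were called between regions, 2 higher and 4 lower in cerebellar vessels, against 6.8% of all genes (3.84% higher and 2.96% lower). Plxnb1 was higher by 0.71 (adjusted p = 0.00138) and Efnb1 lower by -0.33 (adjusted p = 0.0338), as in controls. The other Efnb1 probe sets, 1418286_a_at and 1451591_a_at, changed by -0.13 and -0.46 and were not called (adjusted p = 0.746 and 0.0649, limma over probe sets). Sema4b, a class 4 membrane semaphorin, read 5.17, 5.22 and 5.42 in knockout cerebellar vessels, against 6.64, 6.02 and 6.10 in knockout cerebral vessels, a change of -0.99 (SE 0.16, adjusted p = 0.00635). Sema4d read 8.01, 7.90 and 7.69 in knockout cerebellar vessels, against 9.37, 8.39 and 8.89 in knockout cerebral vessels, a change of -1.01 (SE 0.22, adjusted p = 0.0252). In both genes every cerebellar array lay below every cerebral array.

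Sema6d, which binds plexin-A1, read 11.44, 11.07 and 10.88 in knockout cerebellar vessels, against 10.66, 10.50 and 10.22 in knockout cerebral vessels, a change of 0.67 (SE 0.15, adjusted p = 0.0310). Plxnb3 changed by -0.78 (SE 0.15, adjusted p = 0.0118). Without knockout cerebral replicate 1 the Plxnb3 and Sema4d calls were lost, and the Efnb1 call was lost in all 6 runs that left out 1 array. The Sema4d call was also lost without knockout cerebral replicate 3 or knockout cerebellar replicate 2 or 3, and that of Sema6d without knockout cerebral replicate 3 or knockout cerebellar replicate 1 or 2. When only the knockout arrays were fitted, Plxnb1 and Efnb1 were called and the other 4 were not (Sema4b adjusted p = 0.0533, Plxnb3 adjusted p = 0.0690). With the mouse as a fixed block 9 members were called, Plxna1, Sema4c and Sema4g being added. With the mouse as a random block, a planned setting, Plxna1 and Sema4g were added in knockout mice and no member in control mice. Sema4b, Sema4d and Plxnb3 were not called in control mice (adjusted p = 0.266, 0.511 and 0.698), and the tests of the difference between genotypes, given above for Plxnb3 and Sema4b, were not called either. The arrays of the regions did not overlap for 2 members higher and 5 lower in control cerebellar vessels, against 10.9% and 10% of all genes. In knockout mice this held for 3 higher and 5 lower members, against 12.9% and 12.5% of all genes.

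Microglia and macrophage markers moved with Plxnb3, Sema4b and Sema4d, which were lower in knockout cerebellar than in knockout cerebral vessels. Efnb1 was lower there too, and it was also called lower in control cerebellar vessels. Of 7 markers, 6 were called lower in cerebellar than in cerebral vessels of knockout mice, with a median of -1.27. None was called in control mice, where the median was -0.61. The cerebellar minus the cerebral knockout effect was called for none of the 7 markers (median -0.68), so a difference between genotypes is not shown. Their summed level in knockout mice was 15.09 to 15.35 in cerebellar and 15.81 to 16.33 in cerebral vessels. In control mice it was 14.96 to 15.25 in cerebellar and 15.15 to 15.63 in cerebral vessels. Pericyte markers were called higher in cerebellar vessels, 6 of 7 in knockout and 5 of 7 in control mice, as were 6 and 2 of 7 cerebellar neuron markers. Fibroblast markers were called higher too, 5 of 8 in knockout mice (median 0.60) and 4 of 8 in control mice (median 0.91). Of 6 choroid plexus markers, 1 was called higher in each genotype, with medians of 0.97 in knockout and 1.36 in control mice. The part of these cells in the members' values was not tested.

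**Figure D5:**
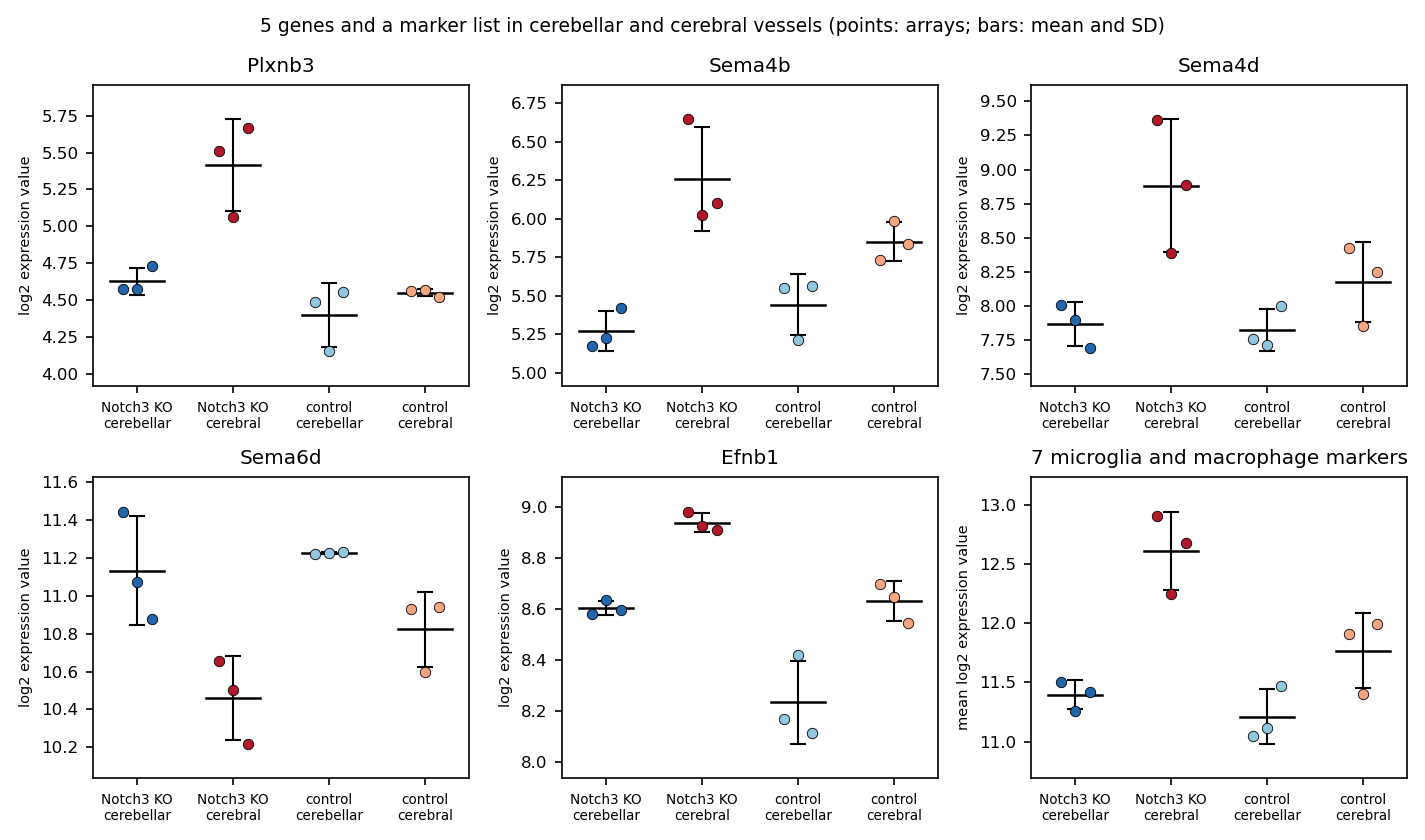
Log2 expression level of Plxnb3, Sema4b, Sema4d, Sema6d and Efnb1 and the mean of 7 microglia and macrophage markers on each array, with cerebellar left of cerebral vessels in each genotype. In knockout mice the cerebral arrays of Plxnb3, Sema4b, Sema4d and the markers lie above the cerebellar ones.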

How the data were processed

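The authors deposited log2 expression values per probe set, made with GCRMA 2.32.0, per the submitters' processing notes. GCRMA corrects background, normalises between arrays and summarises probes, and the values were used without rescaling. Of 45101 probe sets, 34958 named 1 gene in the platform annotation, 932 several and 9211 none, and 64 control probe sets were left out. The number of arrays limits the precision.

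Two-sided tests used lmFit and eBayes of limma 3.58.1 (R 4.3.3) with 4 group means over 12 arrays, or the mean of both regions per mouse, and Benjamini-Hochberg adjustment over all 11716 genes. The procedure was tested on simulated data. Fits of single probe sets covered every kept probe set. Members and lists were chosen with earlier results of these data known. Named are called members, the 4 brightest per family, members whose probe sets disagree and called partners; some others were named after their values were seen. Replicate numbers were read as mice, although no label says so: between regions of a genotype, same-numbered arrays deviated together (r 0.371 to 0.705). Alternatives changed the filter, probe set choice, normalisation, weights, arrays and covariates. Promoters came from RefSeq (GRCm38.p6).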

Additional observations from a re-analysis of the deposited data

How the results depend on the processing

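The table of alternatives held no change of direction of a called member. Called members in the knockout comparison of cerebral vessels numbered 5, against 2 with no filter on low values, 3 after quantile normalisation, 1 when only the arrays compared were fitted, 8 with the replicate block, and 2 to 4 without 1 array. In cerebellar vessels 4 were called, and 2 to 3 without 1 array. On the mean per mouse 4 were called, against 1 with no filter, 2 with the mean of probe sets, 2 with the replicate block (Plxnb1 and Plxnb3), 2 with the Xist covariate (Plxnb1 and Epha3) and 1 to 2 without 1 mouse; both of these settings lost Sema5a, Efnb1 and Sema7a. Between regions in controls 2 were called, against 1 with the mean of probe sets, 1 after quantile normalisation, 4 with array weights, 1 with only the arrays compared, 4 with the mouse as a fixed replicate block and 1 to 2 without 1 array. In knockouts 6 were called, against 3 with a filter at the 75th percentile, 2 with only the arrays compared and 3 to 6 without 1 array. The difference between regions gave 0 in every run. Where only the arrays compared were fitted, fewer samples set the spread; the cause of the other changes was not tested. Across genotypes the replicate numbers did not pair the arrays: same-numbered deviations correlated at 0.00655 to 0.194 for cerebral arrays and -0.166 to 0.259 for cerebellar arrays, and 4 of 6 and 3 of 6 arrays correlated best with their own number. The Xist covariate and the fixed mouse block were chosen after seeing the data.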
